A study of Mus musculus with 2 samples.

Results

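Ms4a7, Ms4a6b, Ms4a6c, Ms4a6d, Ms4a4a, Ms4a4b, Ms4a4c and Ms4a1 are 8 genes of the Ms4a family that neighbour each other on chromosome 19. They were taken by symbol, 8 of the 32285 genes measured, from counts of CD45+ brain cells of single mice, and 11 further symbols that start with Ms4a served as the rest of the family. The cells came from 4 control and 4 Arpc4ΔCx3cr1 mice, all 12 weeks old. Arpc4 encodes a subunit of the Arp2/3 complex, which starts branched actin filaments. Arpc4ΔCx3cr1 mice carried Arpc4 alleles flanked by loxP sites together with a Cre transgene under the Cx3cr1 promoter, which is active in microglia, in macrophages at the borders of the brain and in monocytes, and control mice were littermates with the same Arpc4 alleles and without Cre. All control mice were male, and 1 of the 4 Arpc4ΔCx3cr1 mice was female, which the labels do not name. The study left this female out of its single-cell analysis to avoid a possible bias by sex, whereas she entered the main tests here. Sex was thus not balanced between the genotypes. The cells of all 8 mice were tagged per mouse and pooled into 1 library, so genotype and library are not confounded. Comparisons used sums per mouse, and the mouse was the replicate between genotypes within a cell type. Where each mouse gave a pair of sums, the main fit took the sums as separate, and a fit with a block for the mouse was added.

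Ms4a genes encode small proteins that cross the membrane several times and sit at the cell surface or in endosomes, where several of them bind to and modulate receptors. Family members are known for their restriction to particular blood cell lineages. Ms4a1 encodes the B cell antigen CD20, Ms4a4b is known from T cells and natural killer (NK) cells, and Ms4a4a and Ms4a7 from macrophages. In the brain, Ms4a7 is widely used to tell macrophages of the meninges, choroid plexus and vessels (central nervous system associated macrophages, CAMs) from microglia.

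In the mm10 genome (GRCm38, with gene positions from GENCODE vM21), the 8 members spanned 355 kb. Ms4a1 lies at chr19:11249675-11266241 and Ms4a7 at chr19:11321039-11336146, both on the minus strand. They are followed on the plus strand by Ms4a4a at chr19:11375523-11392790, Ms4a4c at chr19:11404770-11427246, Ms4a4b at chr19:11443553-11467055, Ms4a6c at chr19:11469366-11482192 and Ms4a6b at chr19:11516512-11531256. Ms4a6d closes the row at chr19:11586604-11604849 on the minus strand. This span holds 12 protein-coding genes, of which 11 are named Ms4a, and the ones that are no members are Ms4a5, Ms4a14, Ms4a4d and Gm8369. No member overlaps another gene on its own strand. On the opposite strand, Ms4a1 overlaps 4930526L06Rik, Ms4a4c overlaps Gm5692, Ms4a6c overlaps BE692007 and Ms4a6b overlaps Gm19261. The members are similar in name but largely separable in sequence: of all 90-base windows of their transcripts, 0.152% of Ms4a6b and 0.357% of Ms4a6c were shared between these 2 genes, 2.23% of Ms4a4c were shared with Ms4a4b, and 0.700% of Ms4a4b were shared with Ms4a4c or Ms4a2. The other 4 members shared no window with another gene of the family.

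**Figure D1:**
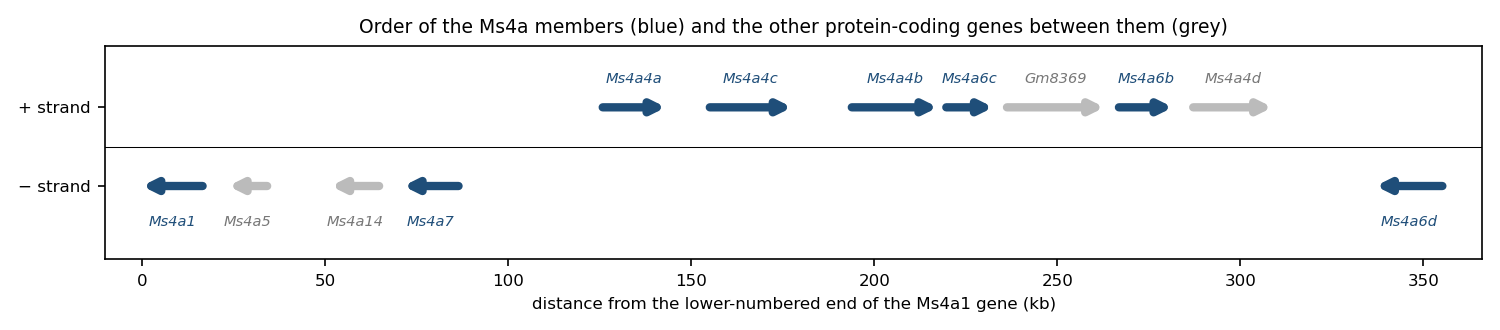
Position of the Ms4a genes between Ms4a1 and Ms4a6d on mouse chromosome 19, as distance in kb from the lower-numbered end of Ms4a1, with the strand of each gene. The 8 members lie within 355 kb, with Ms4a14 between Ms4a1 and Ms4a7.

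Promoters, from 250 bases before to 50 bases after a transcription start, were available from RefSeq (GRCm38.p6) for 6 of the 8 members, not for Ms4a1 and Ms4a6d. They were searched on both strands for 3 motifs that do not overlap one another, GAAANNGAA of interferon regulatory factors, the octamer ATTTGCAT and GAGGAAGT of the myeloid factor PU.1. The promoters of the 4 members with a match, in capitals, are printed here 5′ to 3′. Of these members, Ms4a7, Ms4a6c and Ms4a4c rose in Arpc4ΔCx3cr1 microglia-like cells and Ms4a6b did not. Ms4a4a and Ms4a4b rose as well, and their promoters had no match.
Ms4a7, chr19:11336097-11336396, - strand: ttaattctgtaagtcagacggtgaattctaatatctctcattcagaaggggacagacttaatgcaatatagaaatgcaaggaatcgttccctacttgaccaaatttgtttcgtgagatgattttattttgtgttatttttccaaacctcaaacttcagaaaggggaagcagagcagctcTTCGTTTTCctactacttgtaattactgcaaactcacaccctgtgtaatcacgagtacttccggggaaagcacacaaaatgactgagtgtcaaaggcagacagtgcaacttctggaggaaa
Ms4a6c, chr19:11469118-11469417, + strand: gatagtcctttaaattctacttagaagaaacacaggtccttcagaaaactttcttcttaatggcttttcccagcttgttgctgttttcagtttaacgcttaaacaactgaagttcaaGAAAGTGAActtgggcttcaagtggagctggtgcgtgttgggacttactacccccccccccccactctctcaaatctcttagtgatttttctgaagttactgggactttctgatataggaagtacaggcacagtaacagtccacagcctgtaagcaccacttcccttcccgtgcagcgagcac
Ms4a6b, chr19:11518309-11518608, + strand: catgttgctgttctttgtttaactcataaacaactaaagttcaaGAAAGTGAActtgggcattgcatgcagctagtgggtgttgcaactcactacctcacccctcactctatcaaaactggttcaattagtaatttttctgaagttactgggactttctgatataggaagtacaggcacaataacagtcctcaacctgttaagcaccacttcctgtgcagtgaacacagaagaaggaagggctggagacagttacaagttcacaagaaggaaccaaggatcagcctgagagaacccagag
Ms4a4c, chr19:11407411-11407710, + strand: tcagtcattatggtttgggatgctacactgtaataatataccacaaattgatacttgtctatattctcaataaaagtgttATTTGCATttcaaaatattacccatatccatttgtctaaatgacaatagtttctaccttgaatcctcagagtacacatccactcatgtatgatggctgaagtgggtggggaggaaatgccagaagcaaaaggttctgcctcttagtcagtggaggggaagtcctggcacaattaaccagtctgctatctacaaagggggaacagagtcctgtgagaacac
GAAANNGAA was found in the promoters of Ms4a7, Ms4a6c and Ms4a6b, and in 8.56% of all 32851 promoters of the table. In Ms4a7, which has a second start with a match as well, it lies on the other strand, its first base 71 bases before the start. In Ms4a6c and Ms4a6b it has the same letters, GAAAGTGAA, at 133 and 206 bases before the start, and these 2 promoters share a run of 48 bases. ATTTGCAT was found in Ms4a4c and in 1.74% of all promoters, and GAGGAAGT was found in none of the 6 members and in 3.2% of all promoters. These matches are letters in a window and say nothing of a factor's binding.

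Of 19864 cells, 19863 were kept, 9443 from control and 10420 from Arpc4ΔCx3cr1 mice, with 5251527 to 12878691 unique molecular identifiers (UMIs, each standing for 1 captured RNA molecule) per mouse. No barcode was shared between mice. Cells were clustered without the Ms4a genes and named from markers of each cell type, which gave 17038 microglia-like, 173 CAM-like, 153 monocyte-like, 143 T cell-like, 66 B cell-like and 55 NK cell-like cells. Levels are given as CPM, a gene's UMIs per 1000000 UMIs of a mouse's cells of one type, counted at the 3′ end of transcripts and therefore not divided by length. Arpc4 itself was at 224 to 242 CPM in microglia-like cells of control and at 132 to 146 CPM in those of Arpc4ΔCx3cr1 mice (log2 fold change -0.63 ± 0.05 SE, edgeR adjusted p = 1.94e-06), although reads from outside the deleted part may remain. In CAM-like cells the change of Arpc4 was 0.18 ± 0.31 on that scale, which is not past the threshold. Arpc4ΔCx3cr1 mouse 1 stood apart from the other mice. It held Xist, the RNA of the inactive X chromosome, at 1382 CPM in microglia-like cells, where the other 7 mice held at most 13.2 CPM. By Xist, mouse 1 is the female that the study left out. Its own value or the result without it is given where a called difference between the genotypes moves with it. RNA outside cells, measured in 1769098 empty droplets, held Ms4a6d at 234, Ms4a7 at 206, Ms4a6c at 184, Ms4a6b at 164, Ms4a4c at 40.7, Ms4a4b at 20.2, Ms4a4a at 4.09 and Ms4a1 at 3.36 CPM.

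Across cell types, the family fell into lineage patterns (the plot of levels by cell type). Ms4a7 was highest in CAM-like cells, at 1253 ± 266 CPM (SD, n = 8 mice), and lay at 19.2 ± 43.0 CPM in T cell-like cells. In monocyte-like cells of the 3 Arpc4ΔCx3cr1 mice with at least 10 of them, Ms4a7 was at 16.7, 0 and 53.6 CPM. The monocyte-like cells were led by Ear2, Apoc2 and Fabp4. Over pooled cells they held the monocyte markers Ly6c2 at 7.07 and Ccr2 at 92.0 CPM, so their values need not stand for all monocytes. The CAM-like range, 803 to 1752 CPM, did not overlap that of microglia-like cells, 11.5 to 327 CPM. Of the named types, Ms4a4a too was highest in CAM-like cells, with 158 ± 99.8 CPM, 30.2 ± 22.1 CPM in monocyte-like cells and 3.99 ± 6.23 CPM in microglia-like cells, and the CAM-like and monocyte-like ranges overlapped.

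The Ms4a6 genes were broader. Ms4a6c was about as high in monocyte-like cells, at 1080, 1184 and 751 CPM in Arpc4ΔCx3cr1 mice 1 to 3, as in CAM-like cells, at 821 ± 346 CPM, and these ranges overlapped. It was at 151 ± 159 CPM in microglia-like cells and at 46.3 ± 60.8 CPM in T cell-like cells. Ms4a6b was highest in CAM-like cells, at 673 ± 196 CPM, and unlike Ms4a6c it was also found in T cell-like cells, at 379 ± 142 CPM, with overlapping ranges. Ms4a6d was at 502 ± 257 CPM in CAM-like, 174 ± 90.1 CPM in microglia-like and 35.6 ± 25.8 CPM in T cell-like cells. In control mice, 303 to 358 CPM of Ms4a6d in CAM-like cells stood against 120.5 to 135 CPM in microglia-like cells.

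The lymphoid members were Ms4a4b and Ms4a1. Ms4a4b was at 1012 ± 479 CPM in T cell-like cells (n = 8), and over all NK cell-like cells of a genotype it was at 1570 CPM in control (95% Poisson interval 1310 to 1866) and at 1145 CPM in Arpc4ΔCx3cr1 mice (968 to 1346). In CAM-like and microglia-like cells it stayed at 7.82 ± 14.3 and 2.12 ± 2.24 CPM. Ms4a1 was at 1075 and 1548 CPM in B cell-like cells of control mice 1 and 2 and at 574 CPM in those of Arpc4ΔCx3cr1 mouse 3, the 3 mice with at least 10 such cells. Over all B cell-like cells of a genotype it was at 1126 CPM in 39 control cells (942 to 1337) and at 667 CPM in 27 Arpc4ΔCx3cr1 cells (532 to 826), intervals that cover counting error only. No Ms4a1 UMI was seen in CAM-like, T cell-like or monocyte-like cells, where 3 UMIs would have been 4.30, 5.87 and 5.31 CPM.

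Ms4a4c had its highest level outside the named types, in an unnamed cluster led by Saa3, at 303 ± 130 CPM (n = 6 mice). That cluster scored highest for dendritic cell and next for monocyte markers, with median log2 differences from all cells of 2.61 and 2.06. Over pooled cells it held Ly6c2 at 105 and Ccr2 at 622 CPM. Monocyte-like cells held Ms4a4c at 133, 51.5 and 96.5 CPM in Arpc4ΔCx3cr1 mice 1 to 3. Microglia-like cells held it at 25.04 ± 22.8 CPM (n = 8), and CAM-like cells at 58.1 ± 95.7 CPM, ranges that overlapped.

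**Figure D2:**
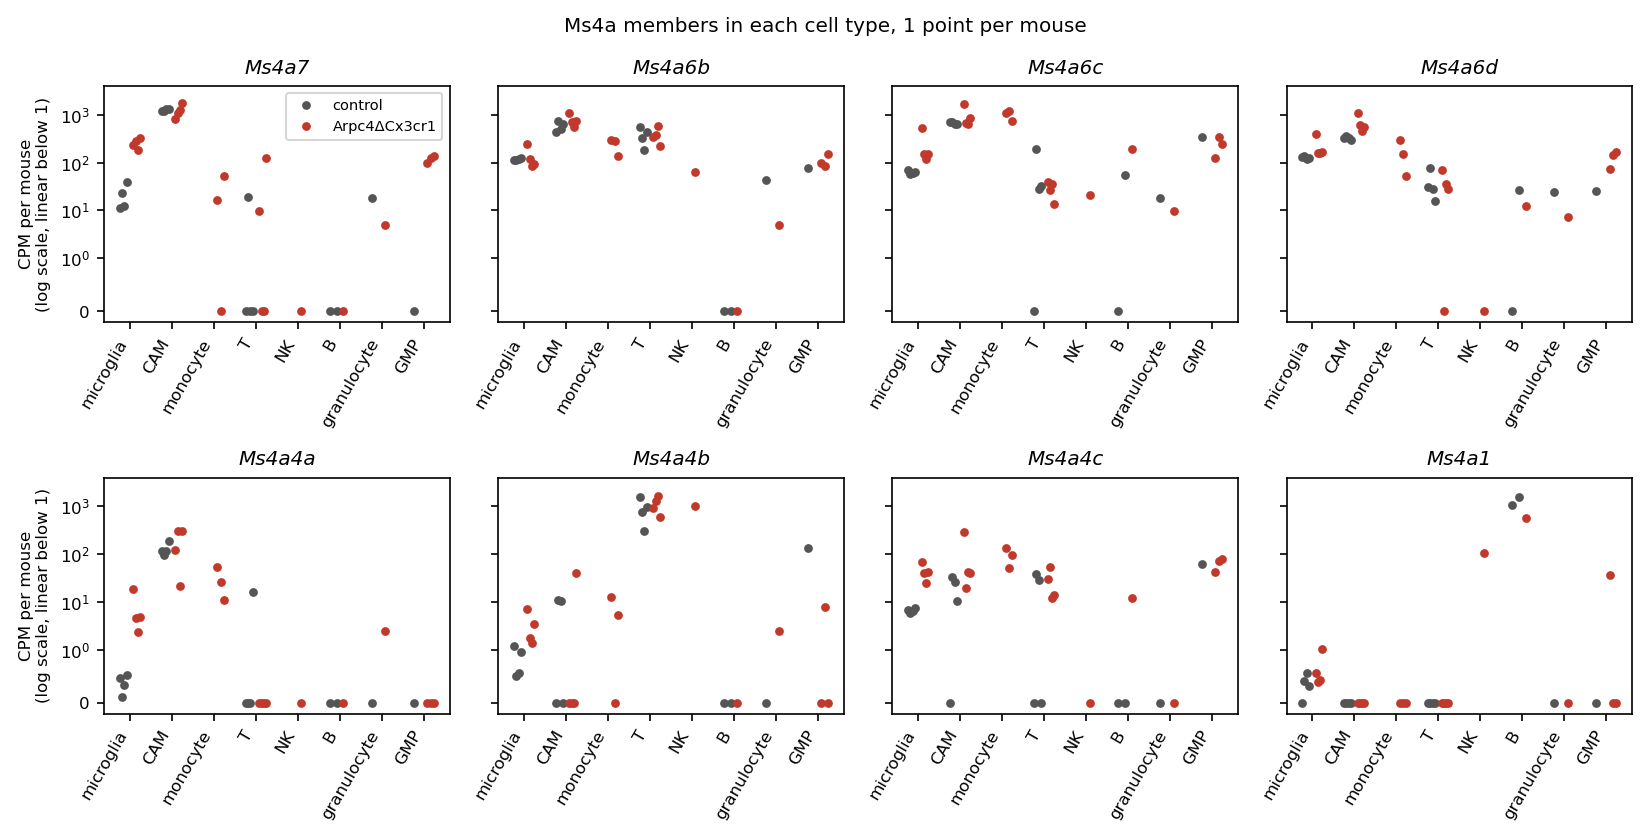
Levels of the 8 members by cell type, as CPM on an axis that is logarithmic above 1 and linear below, with 1 point per mouse that had at least 10 cells of the type, coloured by genotype (GMP stands for granulocyte-monocyte progenitor). Ms4a1 stands out in B cell-like, Ms4a4b in T cell-like, Ms4a6c in monocyte-like and CAM-like and Ms4a7 in CAM-like cells, where Ms4a7 reached 1752 CPM.

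The genes whose levels followed each member most closely were sought over 37 sums of a mouse and a cell type. The sums share mice, depth and 1 library, so the correlations of log2 levels are descriptions. Ms4a7 was closest to Apoe, the apolipoprotein E gene (r = 0.91), Gm4951 (0.89) and Rab7b (0.87), and Ms4a4a to Serpinb8 (0.92), the scavenger receptor gene Msr1 (0.92) and the lectin gene Clec4n (0.90). Ms4a4b was closest to Skap1, an adaptor of T cell receptor signalling, Tox and Gm2682 (0.94 each), and Ms4a1 to Fcmr, the receptor of immunoglobulin M (0.98), Ly6d (0.98) and the light chain gene Iglc3 (0.97). Ms4a6c was closest to Hfe (0.82) and Ms4a6d to the interferon-inducible gene Ifi204 (0.83). Ms4a6b was closest to Dynll2 (0.86). Ms4a4c had no gene above 0.74, which was reached by Gsto1.

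Microglia-like cells of Arpc4ΔCx3cr1 mice held more of Ms4a7, Ms4a4a, Ms4a4c, Ms4a4b and Ms4a6c, while Ms4a6b and Ms4a6d did not pass the test. Of the 7 members tested, 5 were higher and none was lower (edgeR quasi-likelihood test on sums per mouse, adjusted p under 0.05 over all genes), against 22.7% of the 12730 genes that were higher, 23% that were lower and 45.7% that changed in either direction. Ms4a1 had 39 UMIs in all microglia-like cells and was not tested. Leaving out control mouse 2, 3 or 4 took Ms4a6c off the list (adjusted p 0.0588 to 0.0591), and leaving out Arpc4ΔCx3cr1 mouse 1 added Ms4a6d.

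Ms4a7 was at 11.5, 23.2, 12.6 and 38.6 CPM in control mice 1 to 4 and at 236, 282, 185 and 327 CPM in Arpc4ΔCx3cr1 mice 1 to 4. Every Arpc4ΔCx3cr1 mouse lay above every control mouse. The log2 fold change was 3.64 ± 0.41 (SE, edgeR adjusted p = 0.00046), a 12.5-fold difference. Its level in these microglia-like cells was still below every CAM-like value.

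Ms4a4c was at 6.92, 5.97, 6.31 and 7.51 CPM in control mice and at 67.4, 40.1, 24.7 and 41.4 CPM in Arpc4ΔCx3cr1 mice. The groups did not overlap, and the log2 fold change was 2.81 ± 0.34 (edgeR adjusted p = 0.000346). Ms4a4a was nearly absent from control microglia-like cells, with 0.477, 0.103, 0.332 and 0.529 CPM from 1 to 5 UMIs per mouse. In Arpc4ΔCx3cr1 mice it was at 18.6, 4.68, 2.32 and 4.87 CPM. Here too the groups did not overlap, with mouse 1 far above the others, and the log2 fold change was 4.53 ± 1.03 (edgeR adjusted p = 0.00895) with all mice and 3.59 ± 0.42 (1.42e-06) without mouse 1.

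Ms4a4b, the T and NK cell member, was at 1.19, 0.515, 0.554 and 0.952 CPM in control mice and at 7.18, 1.79, 1.37 and 3.42 CPM in Arpc4ΔCx3cr1 mice (log2 fold change 2.29 ± 0.63, edgeR adjusted p = 0.015). Without mouse 1 the change was 1.66 ± 0.40 (adjusted p = 0.0024). These low levels did not overlap between the genotypes. In the same cells the summed NK cell markers were higher with Ms4a4b, at 0.332 to 0.529 CPM in control and 2.24 to 4.29 CPM in Arpc4ΔCx3cr1 mice, and the summed T cell markers were lower, at 66.9 to 78.0 CPM in control and 10.5 to 42.5 CPM in Arpc4ΔCx3cr1 mice. Neither list overlapped between the genotypes, and their part in the result was not tested. With free RNA subtracted or with cells thinned to equal depth, Ms4a4b fell below the filter on low counts and was not tested.

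Of the 3 Ms4a6 genes, 1 passed the test. Ms4a6c was at 69.4, 58.5, 61.0 and 62.6 CPM in control mice and at 531, 152, 119.7 and 155 CPM in Arpc4ΔCx3cr1 mice. No value overlapped, mouse 1 was the highest by far, and the log2 fold change was 2.04 ± 0.55 (edgeR adjusted p = 0.0234) with all mice and 1.29 (8.39e-08) without mouse 1. Ms4a6d was at 134, 135, 120.5 and 125 CPM in control mice and at 393, 158, 158 and 171 CPM in Arpc4ΔCx3cr1 mice. These groups did not overlap either, but the log2 fold change of 0.88 ± 0.34 did not pass the test (edgeR adjusted p = 0.0752) until mouse 1 was left out (0.45, adjusted p = 4.05e-06).

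Ms4a6b was at 115, 115, 121 and 123 CPM in control mice and at 245, 119, 85.4 and 95.7 CPM in Arpc4ΔCx3cr1 mice. The genotypes overlapped, and the log2 fold change of 0.31 ± 0.35 (95% interval -0.38 to 1.00, edgeR adjusted p = 0.509) turned to -0.14 without mouse 1. Mouse 1 was the highest of the 4 Arpc4ΔCx3cr1 mice for Ms4a4a, Ms4a4b, Ms4a4c, Ms4a6b, Ms4a6c and Ms4a6d, and for Ms4a7 it was the third.

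**Figure D3:**
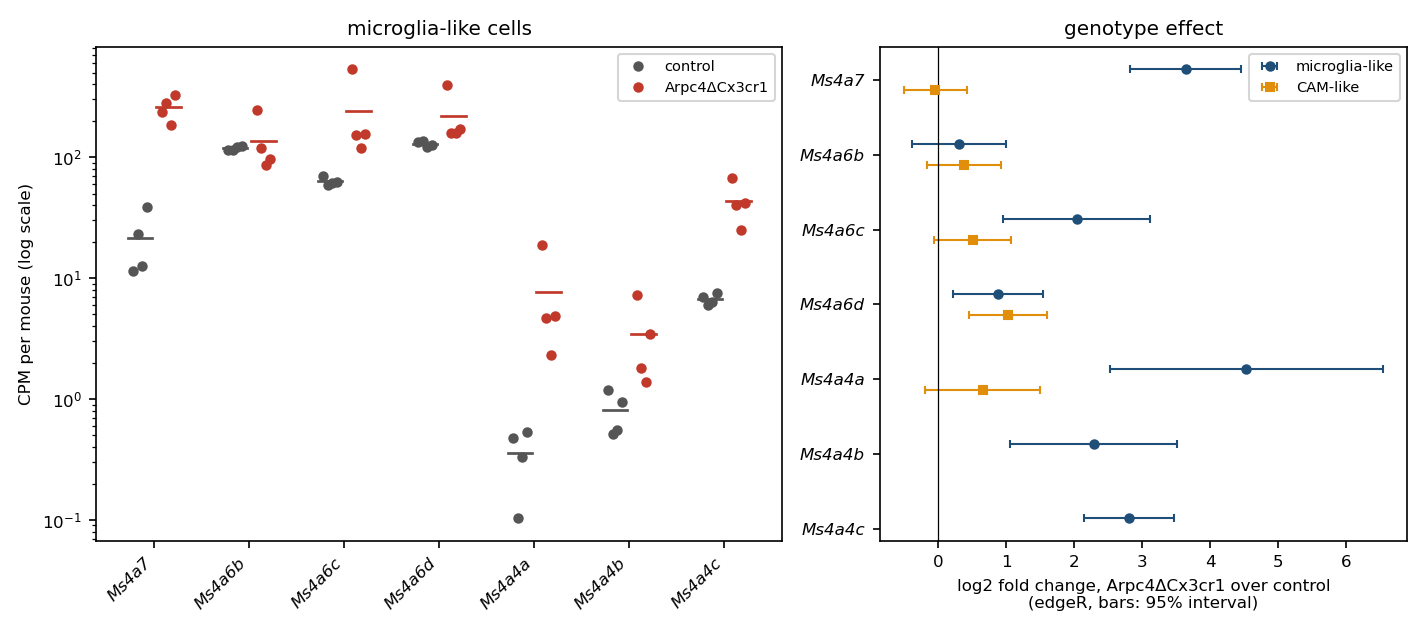
The left panel shows the level of 7 members in microglia-like cells as CPM on a log axis, with 1 point per mouse and a line at each group's mean, and the right panel the log2 fold change of Arpc4ΔCx3cr1 over control mice with its 95% interval in microglia-like and CAM-like cells. The groups of Ms4a7 lie apart, at 11.5 to 38.6 and 185 to 327 CPM, and its intervals for microglia-like and CAM-like cells do not meet.

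The markers of the cell types moved with this result. The summed microglia markers were at 22201.5 to 22565 CPM in control and 8748 to 12583 CPM in Arpc4ΔCx3cr1 microglia-like cells. The summed CAM markers were at 167 to 185 CPM in control and at 66.7 to 156 CPM in Arpc4ΔCx3cr1 mice, with 8 or 9 of the 9 markers found in each mouse, and CAM-like cells held 10445 to 15943 CPM. Both sums were lower in the genotype with more Ms4a7, but the sums do not show single markers. Over pooled cells, Pf4 was at 1.76 to 4.30 CPM in control-rich clusters and 61.6 CPM in the cluster richest in Ms4a7, described below. Mrc1 was at 12.6 to 14.7 against 126.9 CPM and F13a1 at 0.34 to 0.84 against 6.14 CPM, while Lyve1 and Cd163 stayed at or near 0 in that cluster. The part of these markers in the result was not tested.

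In CAM-like cells no member passed the test, 0 of 5, against 0.0609% of 1642 genes (edgeR), and 1 member was under an unadjusted p of 0.05. DESeq2 called none of the members either. Ms4a7 was at 1212, 1224, 1327 and 1349.6 CPM in control mice and at 803, 1089.7, 1267 and 1752 CPM in Arpc4ΔCx3cr1 mice. The Arpc4ΔCx3cr1 mice lay on both sides of the control mice, and the log2 fold change was -0.04 ± 0.24 (95% interval -0.51 to 0.42, edgeR adjusted p = 0.995). Ms4a6d was the member under the unadjusted threshold, at 323, 358, 326 and 303 CPM in control and at 1071, 614, 465 and 553 CPM in Arpc4ΔCx3cr1 mice. Its groups did not overlap, and the log2 fold change was 1.03 ± 0.29 (edgeR adjusted p = 0.197). With coarser clusters, at resolution 0.4, it passed the test (1.02, adjusted p = 0.0165).

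Ms4a6c was at 628 to 715 CPM in CAM-like cells of control mice and at 1656, 674, 655 and 871 CPM in Arpc4ΔCx3cr1 mice (log2 fold change 0.51 ± 0.29). Ms4a6b was at 438 to 758 CPM in control and 549 to 1071 CPM in Arpc4ΔCx3cr1 mice (0.38 ± 0.28). Ms4a4a was at 97.5 to 188 CPM in control and 21.1 to 307 CPM in Arpc4ΔCx3cr1 mice (0.66 ± 0.43). All 3 groups of values overlapped. Each Arpc4ΔCx3cr1 mouse gave only 10 to 24 CAM-like cells and each control mouse 19 to 50. In simulated data of this size, 35% of 2-fold and 77% of 4-fold differences were recovered over genes of all levels. A difference of 2-fold may thus have been missed, and the rates need not hold for single members.

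In T cell-like cells Ms4a4b was at 1602, 773, 297 and 958 CPM in control mice and at 909, 1305, 1656 and 593 CPM in Arpc4ΔCx3cr1 mice. The genotypes overlapped widely (log2 fold change 0.34 ± 0.51, 95% interval -0.66 to 1.34, edgeR adjusted p = 0.997). Ms4a6b, at 184 to 544 CPM in control and 221 to 585 CPM in Arpc4ΔCx3cr1 mice, had a log2 fold change of 0.08 ± 0.33. These were the members with enough counts, and 0 of 2 passed the test, none under an unadjusted p of 0.05 and none by DESeq2, against 0.111% of 902 genes.

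Monocyte-like cells could not be tested, since each control mouse had 6 to 8 of them. Over the 28 control cells Ms4a6c was at 755 CPM (95% Poisson interval 576 to 972) and over the 125 Arpc4ΔCx3cr1 cells at 965 CPM (880 to 1056). Ms4a7 had no UMI in the control cells, where 3 UMIs would have been 37.7 CPM, and was at 28.8 CPM (15.7 to 48.3) in the Arpc4ΔCx3cr1 cells. Ms4a7 in monocyte-like cells of Arpc4ΔCx3cr1 mice was thus below its level in their microglia-like cells in each of the 3 mice with at least 10 such cells.

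Whether the genotype effect differed between microglia-like and CAM-like cells was tested as an interaction. Ms4a7 differed by 3.80 ± 0.50 on the log2 scale (microglia-like minus CAM-like effect, edgeR adjusted p = 0.000784) and was the only one of the 7 members tested to pass, against 2.57% of 11000 genes that passed in this direction and 3.02% in either. For Ms4a4a the difference was 3.93 ± 1.36 (adjusted p = 0.188), and for Ms4a6c it was 1.72 ± 0.71 (0.295). In simulated data of this size, this test recovered only 6% of 2-fold and 25% of 4-fold differences. A member that did not pass may therefore still differ between the cell types. Each mouse gave 2 of these sums, and when the mouse entered the model as a block, 3 members passed, against 2.84% of all genes in this direction, Ms4a7 with 4.05 (adjusted p = 6.81e-43), Ms4a4a with 3.80 (4.90e-07) and Ms4a6c with 1.52 (1.51e-05). Ms4a6b and Ms4a6d differed by 0.09 ± 0.50 and 0.05 ± 0.51, and their signs turned under the block. Without Arpc4ΔCx3cr1 mouse 1, 3 members passed, against 2.44% of all genes.

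The share of microglia-like cells with a UMI gives the spread of each member over cells. Cells were thinned to 2000 UMIs, which left out 289 control and 329 Arpc4ΔCx3cr1 cells. Ms4a7 was found in 1.45, 1.95, 1.09 and 1.85% of cells of control mice and in 24.6, 18.95, 14.7 and 23.6% of cells of Arpc4ΔCx3cr1 mice, and without thinning in 2.72% and 27.8% on average. The genotypes lay far apart. In T cell-like cells, which should lack the gene, it was found in 0% in 6 of 7 mice and in 12.5% of the 16 cells of Arpc4ΔCx3cr1 mouse 4, and in CAM-like cells in 85.7 to 100%. The median microglia-like cell held 4054 UMIs and the median T cell-like cell 3223.

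Ms4a6c was found in 10.5 ± 0.183% of control and 31.0 ± 18.2% of Arpc4ΔCx3cr1 microglia-like cells (SD, n = 4 each), with 58.1% in mouse 1 and 19.1 to 23.8% in the other 3. T cell-like cells held it at 7.94 ± 8.36% (0 to 16.7% in 3 control mice) and 4.31 ± 6.08%. This spread over few cells is too wide to set a background for the microglia-like shares. Ms4a6d was found in 22.2 ± 1.44% and 33.7 ± 12%, and Ms4a6b in 21.5 ± 1.04% and 22.1 ± 9.22%. Ms4a4c was found in 1.32 ± 0.0465% and 7.86 ± 3.42%, and Ms4a4a in 0.0715 ± 0.0297% and 1.61 ± 1.48%, and neither pair of groups overlapped.

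The counts of Ms4a7 were uneven over the Arpc4ΔCx3cr1 microglia-like cells. One first-level cluster held 330, 418, 244 and 412 cells of Arpc4ΔCx3cr1 mice 1 to 4, or 15.1, 17.9, 10.2 and 17.6% of their microglia-like cells. Control mice gave 0, 10, 8 and 15 cells to it. Ranked by the lowest of the 4 Arpc4ΔCx3cr1 mice in the log2 difference from other microglia-like cells of the same mouse, its first genes were Ms4a7, the antigen presentation gene H2-Eb1, the lectin-like receptor gene Klra2, H2-Aa and Pde7b, at 2.54 to 2.77. In mouse 1 the hemoglobin gene Hbb-bs differed more, by 9.52, against 2.77 for Ms4a7, and over all mice at once hemoglobin genes came first. No Ms4a gene was used for the clustering, but the cluster was singled out after its values had been seen, and its levels are descriptions. It is called the Klra2-led cluster here, although Klra2 came after Ms4a7 and H2-Eb1 in that ranking.

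In the Klra2-led cluster Ms4a7 was at 1051, 1747, 1818 and 1929.8 CPM in Arpc4ΔCx3cr1 mice 1 to 4, which is within or above the range of CAM-like cells. The 10 and 15 cells of control mice 2 and 4 held it at 1667 and 3395 CPM. Whether wrongly tagged cells or doublets were among these few control cells was not tested. The cluster held 44.3, 76.0, 66.4 and 68.4% of the Ms4a7 UMIs of their microglia-like cells, and 29, 89.4, 66.7 and 75.4% of those of Ms4a4a. Ms4a4a was at 54.4, 34.1, 22.9 and 31.7 CPM there, and Ms4a6c at 666, 436, 479 and 411 CPM. In mouse 1 the cluster held smaller shares of both genes than in the other 3 mice.

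All 10 microglia markers were found in the cluster, with the microglial genes P2ry12 at 209 to 449 CPM and Sall1 at 25.5 to 47.2 CPM. In Arpc4ΔCx3cr1 mice the summed microglia markers were at 4864 to 7600 CPM there and at 9176 to 13280 CPM in other microglia-like cells. CAM-like cells held this sum at 3126 to 4676 CPM in Arpc4ΔCx3cr1 and at 4237 to 5666 CPM in control mice. Over pooled CAM-like cells P2ry12 was at 481 CPM. The summed CAM markers reached 181 to 454 CPM in Arpc4ΔCx3cr1 mice, with 3 to 7 of the 9 markers found. This was above the 58.4 to 115 CPM of the other microglia-like cells of these mice, and CAM-like cells held 10445 to 15943 CPM. The few control cells of the cluster held more of them, 1074 and 1573 CPM in the 2 control mice with at least 10 such cells. The CAM genes Lyve1, at 0, and Cd163, at no more than 2.95 CPM, were at or near 0, while Mrc1 was at 54.7 to 186 CPM and Pf4 at 24.4 to 90.9 CPM. So the CAM markers were higher in the cluster richest in Ms4a7, and their part in its Ms4a7 level was not tested. The cluster also held hemoglobin RNA in mouse 1 alone, with Hbb-bs at 9389 CPM against 1.62 to 4.42 CPM in the other 3 mice.

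**Figure D4:**
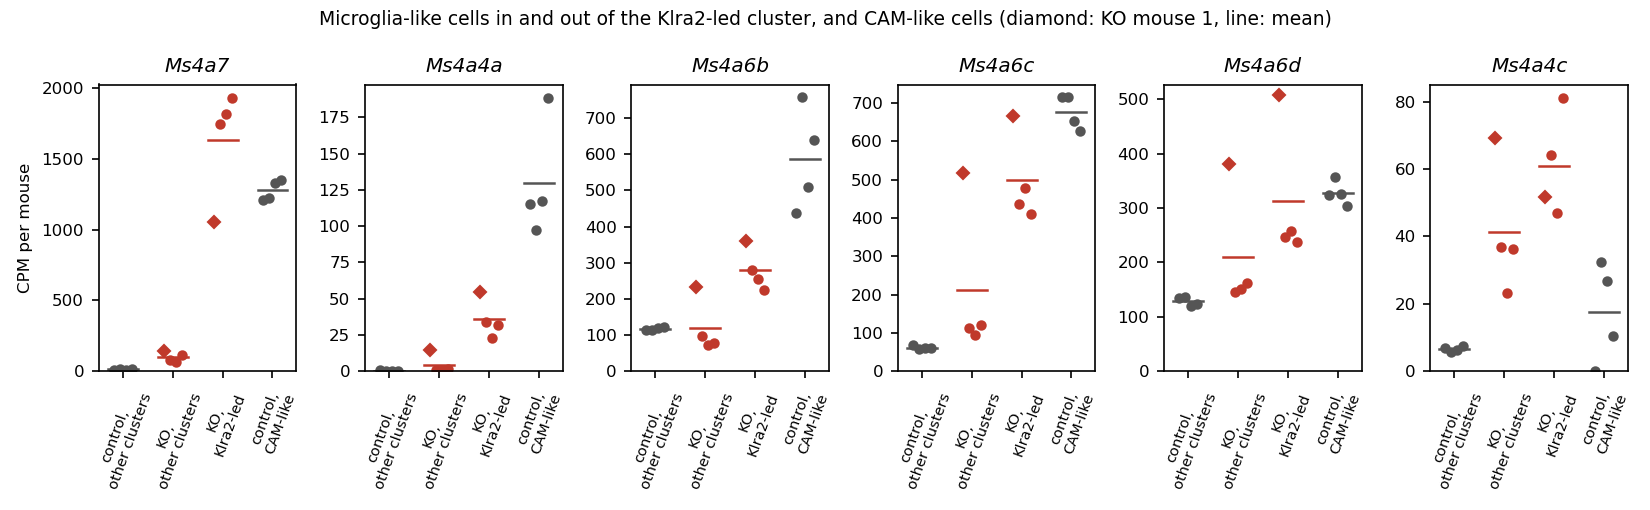
Levels of 6 members as CPM on linear axes, with 1 point per mouse and lines at the means, in microglia-like cells of control and of Arpc4ΔCx3cr1 mice (KO) outside the Klra2-led cluster, in KO cells of that cluster and in control CAM-like cells. Ms4a7 in the cluster, 1051 to 1929.8 CPM, lies around the level of CAM-like cells, and Ms4a4a, 22.9 to 54.4 CPM, below it.

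Outside the cluster Ms4a7 was still higher in Arpc4ΔCx3cr1 mice, at 146, 77.1, 66.7 and 117 CPM, than in control mice, at 11.5, 17.8, 9.54 and 13.6 CPM. These groups did not overlap, and without the cluster's cells the log2 fold change was 3.04 ± 0.34 (edgeR adjusted p = 0.000334). Ms4a4c passed as well, with 2.77 ± 0.38 (0.000831). Ms4a4a was at 14.7, 0.568, 0.83 and 1.35 CPM and was removed by the filter on low counts. Ms4a6c lost its call, with 1.89 ± 0.65 (0.0556), so that 3 of the 6 members tested remained higher, namely Ms4a7, Ms4a4c and Ms4a4b, against 22.3% of all genes.

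A finer clustering of the microglia-like cells, again without Ms4a genes, gave 12 clusters in which the members had different places. In the 4 clusters with no more than 4.74% of Arpc4ΔCx3cr1 cells, led by genes such as Csmd3, Ecscr and Crybb1, control mice held Ms4a7 at 3.72 to 7.28 CPM on average. In the clusters mostly of Arpc4ΔCx3cr1 cells, Arpc4ΔCx3cr1 mice held it at 66.1 ± 11.6 CPM (SD, n = 4 mice) in the most numerous one, led by Ctnna3. They held it at 281 ± 136 CPM in one led by Spp1 and Cst7, genes of reactive microglia, and at 1625 ± 376 CPM in the Ms4a7-richest one, with hemoglobin genes and H2-Aa in the lead. The Ms4a7-richest one held 318, 414, 238 and 424 cells of Arpc4ΔCx3cr1 mice 1 to 4. These numbers are close to those of the Klra2-led cluster, so it should not be read as a separate finding. Arpc4ΔCx3cr1 mouse 1 gave only 48 of the 3100 cells of the Ctnna3-led cluster. It gave 1406 of the 1459 cells of another, led by Xist, Fn1 and Tsix. There mouse 1 held Ms4a7 at 136, Ms4a6c at 508 and Ms4a6d at 380 CPM.

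Within clusters, the genotypes did not keep one order. Of the 12 clusters, 2 held at least 10 cells of each of the 8 mice. In the one led by the chemokine genes Ccl4 and Ccl3, Ms4a7 was at 149 ± 27.8 CPM in Arpc4ΔCx3cr1 and 9.35 ± 11.4 CPM in control mice, and Ms4a6c at 140 ± 88.9 against 27.4 ± 13.7 CPM, with 272 CPM in Arpc4ΔCx3cr1 mouse 1 and 82.0 to 116 CPM in the other 3. In the Ctnna3-led one Ms4a7 was lower in Arpc4ΔCx3cr1 mice, at 55.8 to 77.6 CPM, than in the 16 to 35 cells of each control mouse, at 100.5 to 145 CPM, and these groups did not overlap. Control cells were few in the other clusters rich in Arpc4ΔCx3cr1 cells. Control Ms4a7 was at 1870 and 3395 CPM in the Ms4a7-richest cluster, at 537 CPM in the 1 control mouse with at least 10 cells in the Spp1-led one, and at 195 ± 112 against 96.8 ± 63.9 CPM (n = 3 each) in one led by Arhgap15. These differences within clusters were not tested. In control mice 1 to 4, the own tag led in 1250 of 1257, 2799 of 2831, 2694 of 2705 and 2621 of 2650 barcodes. The part of wrongly tagged cells or doublets in values from few control cells was not tested.

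Ms4a4c had another place. Its highest level was in the cluster led by the interferon-induced genes Cxcl10, Ifit3 and Rsad2, at 169 ± 77.1 CPM in Arpc4ΔCx3cr1 mice (n = 4) and 143 ± 49.7 CPM in the 2 control mice with at least 10 such cells, against 61.7 ± 15 CPM in the Ms4a7-richest cluster. Ms4a6b and Ms4a6c were high in both, at 242 ± 98.9 and 389 ± 313 CPM in the interferon cluster and at 280.2 ± 57.0 and 494 ± 119 CPM in the Ms4a7-richest one. The interferon cluster held Ms4a6c at 856 CPM in mouse 1 and at 199.8 to 276 CPM in the other 3 mice. Control cells of the interferon cluster held Ms4a4c at a level that overlapped that of Arpc4ΔCx3cr1 cells, and it was higher there than in every control-rich cluster, where control mice held 3.01 to 5.29 CPM.

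Single Arpc4ΔCx3cr1 microglia-like cells with one member held most other members more often than cells without it. Of the 15 pairs of the 6 members seen in at least 1% of thinned Arpc4ΔCx3cr1 microglia-like cells, 14 had a ratio above 1 in all 4 mice, where the ratio sets the share of cells with the one member among cells with the other against that among cells without it. The exception was Ms4a4a with Ms4a4c. In control mice, 3 of 10 pairs were above 1 in all 4 mice and 1 was below 1. These ratios describe cells that share mice and clusters. Pairs of other genes were not examined, so it is not known how often pairs outside the family have such ratios.

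Ms4a6c was found in 72.0, 47.6, 45.8 and 43.0% of the Arpc4ΔCx3cr1 cells with an Ms4a7 UMI and in 53.6, 18.2, 14.5 and 16.7% of those without, for mice 1 to 4. Ms4a4a had the highest ratios, with 9.40, 3.59, 3.50 and 4.50% against 1.94, 0.168, 0.0504 and 0.290%. Ms4a6b was found in 47.8, 36.1, 34.7 and 29.8% against 31.7, 16.3, 12.8 and 12.5%. The cells with Ms4a7 were the higher ones in every mouse, with the smallest ratios in mouse 1. Ms4a6d had the lowest ratio in each mouse, with 58.2, 37.1, 34.7 and 34.9% against 49.6, 24.4, 26.0 and 27.2%. In control mice Ms4a6c too was more frequent in the few cells with Ms4a7, at 25.6 ± 2.86% against 10.3 ± 0.142% (SD, n = 4), while Ms4a6b was not, at 21.6 ± 6.13% against 21.5 ± 1.07%.

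**Figure D5:**
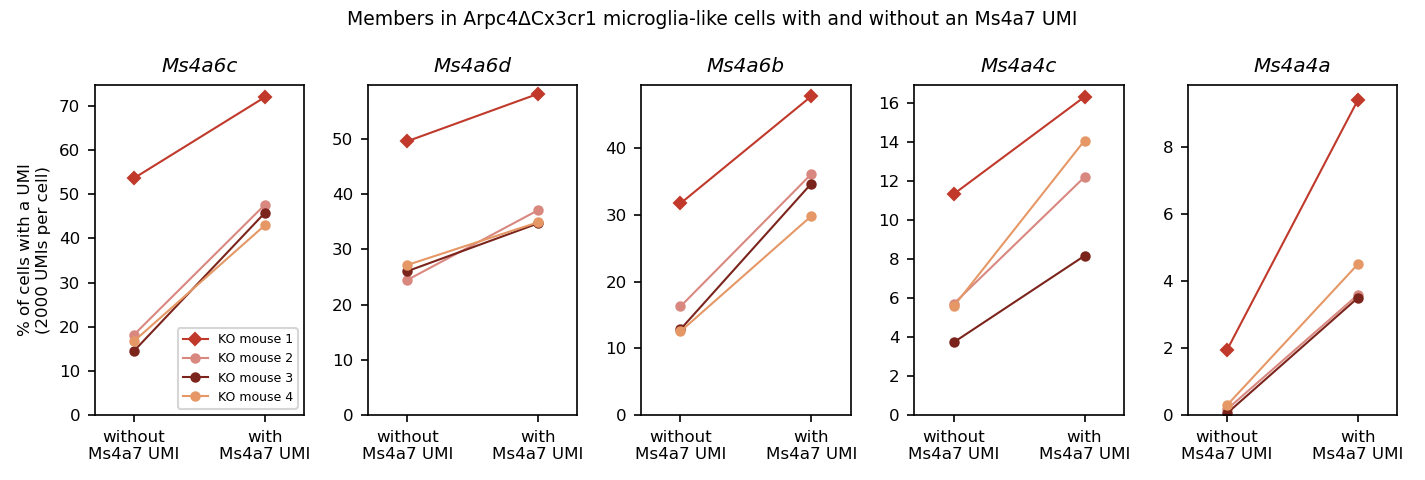
Share of thinned Arpc4ΔCx3cr1 microglia-like cells with a UMI of each member, in percent, among cells with and without an Ms4a7 UMI, with a line for each of the 4 mice. All lines rise from the cells without to the cells with Ms4a7, for Ms4a6c from 53.6 to 72.0% in mouse 1.

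Summed per mouse, the cells with an Ms4a7 UMI (521, 418, 343 and 533) were compared with those without (1598, 1788, 1986 and 1723) over all genes, and Ms4a7, which made the groups, was left aside. Without regard to the mouse, 0 of 6 other members passed the test (edgeR, 3 under an unadjusted p of 0.05, and 3 passed with DESeq2), against 5.08% of 10325 genes in either direction, 2.78% in the higher and 2.3% in the lower one. Each pair of sums came from 1 mouse, and with a block for it, 5 of 6 were higher in the cells with Ms4a7, against 8.77% of all genes. These were Ms4a4a by 3.41 on the log2 scale (edgeR adjusted p = 4.33e-07), Ms4a6b by 1.36 (0.00332), Ms4a4b by 1.33 (0.0245), Ms4a4c by 1.10 (2.04e-09) and Ms4a6d by 0.57 (7.94e-10). With 4 mice, the smallest of these p-values cannot be read as a measure of a member's own spread between mice. Ms4a6c, at 1.57, did not pass (0.076). Without Arpc4ΔCx3cr1 mouse 1, 5 of the 5 members tested passed without the block as well, against 5.2% of all genes. Outside the Klra2-led cluster 0 of 4 passed without the block (edgeR, 1 under an unadjusted p of 0.05), against 0.34% of 10009 genes that were higher. With the block 4 of 4 were higher there, against 2.97% of these genes, with Ms4a6c at 1.2, Ms4a4c at 1.14, Ms4a6b at 1.06 and Ms4a6d at 0.51.

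Of the other 11 genes named Ms4a, few were measurable in these cells. Ms4a14, the neighbour of Ms4a7 on the same strand, was at 35.9 ± 25.6 CPM in CAM-like cells (n = 8), rose in Arpc4ΔCx3cr1 microglia-like cells by 2.85 ± 0.40 on the log2 scale (edgeR adjusted p = 0.000147), and was higher by 4.85 ± 0.42 in cells with an Ms4a7 UMI (2.09e-05). Ms4a3, a gene of granulocyte precursors, was at 276 CPM over the 87 cells of granulocyte-monocyte progenitors and at 90.7 CPM over the 75 granulocytes. Ms4a8a was at 25.02, 0 and 5.36 CPM in monocyte-like cells of Arpc4ΔCx3cr1 mice 1 to 3 and at 13.3 ± 21.0 CPM (n = 6) in the cluster led by Saa3, where Arpc4ΔCx3cr1 mouse 1 gave 23 of its 26 UMIs. The related genes Tmem176a and Tmem176b, which lie outside this locus, rose in Arpc4ΔCx3cr1 microglia-like cells by 0.78 ± 0.14 (0.00189) and 0.53 ± 0.09 (0.000509). In CAM-like cells their log2 fold changes were -0.61 ± 0.27 and -0.40 ± 0.24 and did not pass, and the effect differed between the cell types by 1.56 ± 0.26 (0.000173) and 1.09 ± 0.23 (0.00415). The values of this paragraph for cells with an Ms4a7 UMI and for the difference between cell types come from fits without a block for the mouse. Those fits take the paired sums of a mouse as separate.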

How the data were processed

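CD45+ brain cells of 8 mice, 4 per genotype, were tagged per mouse, pooled and sequenced in 1 library. The authors deposited raw UMI counts per gene and cell, in a table for each mouse and in an unfiltered one for the whole pool, aligned to mm10 with Cell Ranger (6.1.2 in the submitters' processing notes, 7.1.0 in the matrix header). These counts were not normalized, and the correction for ambient RNA in the methods of the study was not applied to them. Groups and numbers of the mice were taken from the labels.

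A cell was kept if it had 200 genes or more and no more than 20% mitochondrial UMIs. Cells were assigned to mice by the authors from their tags, and no further doublet caller was run. Cells were log-normalized and clustered without Ms4a genes, Arpc4 and sex-linked genes (Seurat 5.3.0 in R 4.3.3, 10000 variable genes, 20 principal components, 20 neighbours, Louvain resolution 0.8), and mixed clusters were clustered again. Clusters were named from marker lists, with limits chosen after the clusters had been seen, and 2073 cells stayed unnamed. The members, gene lists and tests were chosen with earlier results of these data known.

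UMIs were summed per mouse and cell type with at least 10 cells. The test was the quasi-likelihood test of edgeR 4.0.16 with TMM factors after filterByExpr, with p-values adjusted over all genes tested (Benjamini-Hochberg) and called under 0.05, and printed CPM are scaled by the total alone. Intervals over pooled cells are exact 95% Poisson intervals, and these and the limits at 0 UMIs, set at 3 UMIs, cover counting error only. Alternatives used DESeq2 1.42.0, other filters, scalings, clusters and depths, each mouse left out, and blocks. Sums of 1 mouse pair by that mouse, as the tables themselves show, whereas the numbers of the mice pair nothing between genotypes. Depth limits the small types: in simulated data, 89% of 2-fold differences were recovered among 12730 genes in microglia-like cells, 35% among 1642 genes in CAM-like and 55% among 902 genes in T cell-like cells. For the difference of effects between microglia-like and CAM-like cells, 6% of 2-fold differences were recovered among 11000 genes. These rates are over genes of all levels and need not hold for single members.

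All 8 members are named, other Ms4a genes and Tmem176a and Tmem176b where they passed a test or were above 10 CPM in a type, and for each member the 3 genes most like it in log2(CPM + 1). Python 3.11.15, NumPy 2.4.6, pandas 2.3.3, SciPy 1.17.1 and matplotlib 3.10.9 were used. Protein sequences and the staining, imaging and bulk data of the study were not used here.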

Additional observations from a re-analysis of the deposited data

Results flagged for a closer look

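The values of a member in the 4 mice of a genotype were examined in 34 groups for a mouse far from the others, by the gap to its nearest neighbour divided by the range, against Dixon's 95% critical value. Chance gives about 1 such value in 20 groups, and 5 were found. In microglia-like cells of Arpc4ΔCx3cr1 mice, mouse 1 was far above the others for Ms4a6c (531 CPM, ratio 0.915), Ms4a6d (393 CPM, 0.946) and Ms4a4a (18.6 CPM, 0.844). In CAM-like cells, mouse 1 was far above the other Arpc4ΔCx3cr1 mice for Ms4a4c (292 CPM from 12 UMIs, ratio 0.918) and mouse 4 for Ms4a4b (41.0 CPM from 4 UMIs, ratio 1, the other mice being at 0).

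The genotype effect on Ms4a7 differed between microglia-like and CAM-like cells by 3.80 on the log2 scale in the test of the interaction.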

How the results depend on the processing

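Of the results in microglia-like cells, Ms4a7, Ms4a4a, Ms4a4c and Ms4a4b kept their direction and passed the test wherever they were tested, and 4 to 6 members passed when 1 mouse was left out. Without the Klra2-led cluster 3 passed. In CAM-like cells 1 member passed at resolution 0.4. For the difference between microglia-like and CAM-like effects, 2 passed with DESeq2, 1 to 3 with 1 mouse left out and 3 with the mouse as a replicate block. For cells with and without Ms4a7, 3 passed with DESeq2, 0 to 5 with 1 mouse left out, 5 with the mouse as a replicate block and 4 with that block outside the Klra2-led cluster. Numbered mice of the 2 genotypes deviated together in no cell type (correlations -0.411 to 0.0857), and a block by number left 5 members in microglia-like, 0 in CAM-like and 0 in T cell-like cells.

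Small log2 differences changed sign. Without Arpc4ΔCx3cr1 mouse 1, Ms4a6b in microglia-like cells was at -0.14 (range -0.14 to 0.48 with 1 mouse left out). Ms4a7 in CAM-like cells was at 0.12 and 0.04 without Arpc4ΔCx3cr1 mouse 1 or 2 (range -0.27 to 0.12), at 0.21 with unnamed CAM-scoring clusters added and at 0.00017 at resolution 0.4. Ms4a6b in T cell-like cells was at -0.19 without control mouse 3 and at -0.22 without Arpc4ΔCx3cr1 mouse 3 (range -0.22 to 0.28). For the difference of effects, Ms4a6b was at -0.053 with DESeq2, -0.06 without control mouse 2, -0.22 without Arpc4ΔCx3cr1 mouse 1 (range -0.22 to 0.28), -0.025 with the block and -0.17 with scaling by totals, and Ms4a6d at -0.14 with DESeq2, -0.0066 without control mouse 3, -0.15 without Arpc4ΔCx3cr1 mouse 1 (range -0.15 to 0.15), -0.044 with the block and -0.22 with scaling by totals. The causes were not tested.

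Scaling by totals moved the median log2 fold change of all genes in microglia-like cells from -0.0068 to -0.11, the share of higher genes among those called from 49.6 to 34.3%, and for the difference of effects from 0.21 to -0.05 and from 85.2 to 63.7%, and it left the members' counts at 5 and 1. For cells with and without Ms4a7 that share went from 54.8 to 40.5%. Over all genes, 1 passed in CAM-like cells, 28 at resolution 0.4, 12 without a filter and 4 with unnamed clusters added. For cells with and without Ms4a7, 524 genes passed, 1736 with the block, 342 without thinning and 37 outside the Klra2-led cluster.

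Shares of cells follow depth by construction. Without thinning and at 1000 UMIs, the control shares were 2.72 and 0.952% for Ms4a7, 19.7 and 5.56% for Ms4a6c, 38.8 and 12.4% for Ms4a6d, 36.9 and 10.98% for Ms4a6b, 2.2 and 0.705% for Ms4a4c and 0.138 and 0.0365% for Ms4a4a. The Arpc4ΔCx3cr1 shares without thinning were 27.8% for Ms4a7, 55.9% for Ms4a6d (19.5% at 1000 UMIs), 38.6% for Ms4a6b and 15.2% for Ms4a4c (4.12% at 1000 UMIs). The test in monocyte-like cells and its alternatives could not be run, since no control mouse had 10 such cells. Total scaling, DESeq2 for the difference of effects, resolution 0.4 and added clusters for CAM-like cells, and all settings with the Klra2-led cluster were chosen after seeing the data.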
